A study of Mus musculus with 21 samples.

Results

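The primitive endoderm genes described here were 10 genes chosen by symbol, Gata4, Gata6, Sox7, Sox17, Pdgfra, Dab2, Lama1, Lamb1, Col4a1 and Col4a2, out of 31053 gene IDs counted by mRNA sequencing. The cells were E14Tg2a, male embryonic stem cells of the mouse with a 129 background, and 1 of their Rex1 (Zfp42) alleles bears a knock-in of the short-lived fluorescent protein GFPd2. The 21 libraries formed 7 groups of 3, named by the labels. These were 2i+LIF PO, then 2i+LIF LP, CH+LIF LP and LIF LP, then 2i+LIF HP, CH+LIF HP and LIF HP. CH stands for CHIR99021, an inhibitor of GSK3, PD for PD0325901, an inhibitor of MEK, 2i for both together, and LIF for leukaemia inhibitory factor. The labels give 1 growth protocol for every group, in which NDiff227 medium with both inhibitors was used for 1 week and CH, PD and LIF were then given and withdrawn in alternation at each passage. PO was taken as zero passage. The series names cultures of 1 and 2 months, but the labels tie neither LP nor HP to a length, so both are used as names. All libraries came from 1 line, and nothing says that replicates were separate cultures, so p-values measure the spread between these samples, which may be technical.

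The primitive endoderm is the extraembryonic layer that forms beside the epiblast in the late blastocyst and gives rise to visceral and parietal endoderm. FGF4 from the epiblast signals through MEK and ERK to induce Gata6, which is followed by Sox17, Gata4 and Sox7, while PDGFRA and DAB2 mark the cells as they sort to the surface. The layer secretes a basement membrane built of laminin, whose alpha 1 and beta 1 chains are made from Lama1 and Lamb1, and of type IV collagen, made from Col4a1 and Col4a2. Embryonic stem cells express part of this matrix themselves.

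Gene counts per library ranged from 1132126 to 3783043, with a median of 1763531. The file names place the PO libraries in another sequencing run, so run and PO cannot be told apart. A pair of libraries stood apart: Gm42418 took 31.7% of gene counts in 2i+LIF LP replicate 1, and mitochondrial genes took 39.1% in 2i+LIF PO replicate 1. Embryonic stem cell genes were present in every group, with group means of 408 to 870 CPM (counts-per-million, against TMM-scaled library sizes) for Sox2 and of 29.2 to 76.7 CPM for Pou5f1. The levels of MEK-ERK target genes went against the media in the labels for some groups, and all groups are named as labelled. Dusp6, the ERK phosphatase induced by the pathway, had 0.411 ± 0.711 CPM (SD, n = 3) in LIF HP, labelled without the MEK inhibitor, and 3.37 ± 1.36 CPM in 2i+LIF HP, labelled with it (edgeR adjusted p 0.185, not called). It had 20.5 ± 17.6 CPM in 2i+LIF LP against 2.85 ± 0.753 CPM in PO, a log2 difference of 2.89 (SE 0.69, adjusted p 0.0162) between groups with the same medium in their labels. Etv4, an ETS factor induced by the pathway, was called lower in LIF HP (10.9 ± 5.00 CPM) than in 2i+LIF HP (43.6 ± 23.7 CPM), by a log2 difference of -1.95 (SE 0.39, adjusted p 0.00506), the 1 called of 9 tested targets there. The libraries sequenced RNA of whole cultures, in which fewer cells of a type and less RNA per cell cannot be told apart.

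The transcription factors that define primitive endoderm were near the limit of detection in all 7 groups, while the matrix genes had counts in most libraries and, of these, Lamb1 and Col4a1 were called between groups. Gata4, Gata6, Sox7 and Sox17 together reached group means of 1.10 to 2.45 CPM. Lama1, Lamb1 and Col4a1 passed the filter on low counts, which asks for at least 5.67 CPM before TMM scaling in 3 libraries, and the other 7 genes did not. Lama1 reached that level in all 21 libraries and Lamb1 in 11. Col4a1 reached it in 5, the 3 of LIF LP and 2 of 2i+LIF LP, and would have missed the filter without LIF LP. A gene that enters through its highest group had to differ. Counts over the tested members, and over the tested genes of the other lists below, are therefore given as a record and support nothing. Col4a1 stood highest in LIF LP and had no count in 2i+LIF HP, Lamb1 was highest in LIF LP and lower in LIF HP, and no difference was called for Lama1. The name of the list refers to its genes, and the levels of its defining factors do not show primitive endoderm cells in these cultures.

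**Figure D1:**
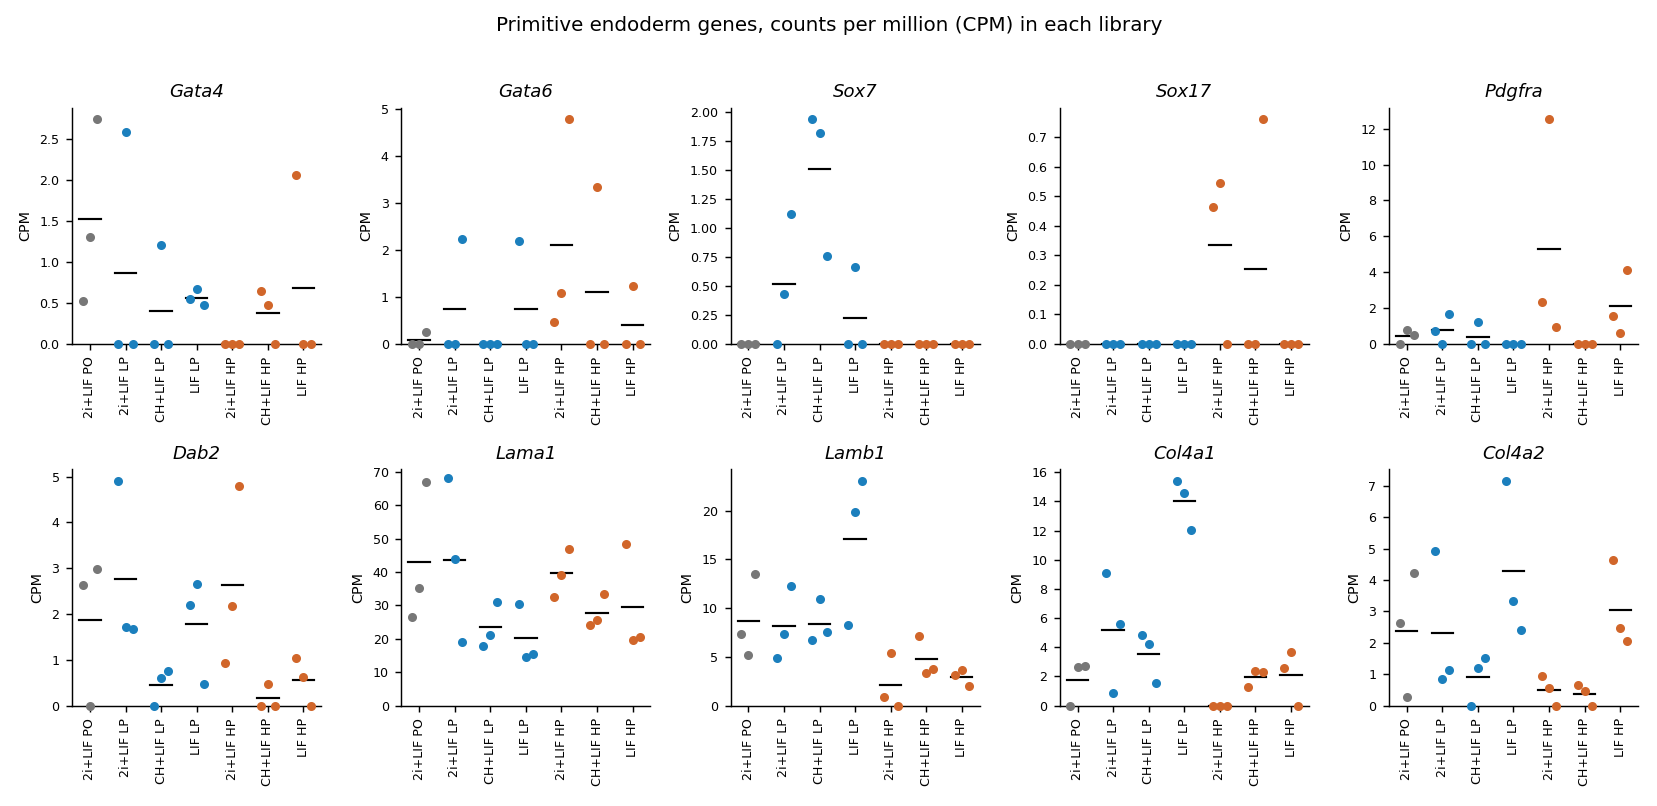
Levels in CPM of each of the 10 genes (vertical axes, one scale per gene) in each of the 21 libraries (points) by group, with group means as bars. Grey marks PO, blue LP and orange HP. Col4a1 in LIF LP, at 12.0 to 15.4 CPM, lies above every other library, and Gata4, Gata6, Sox7 and Sox17 lie below 5 CPM throughout.

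Gata6, the factor that starts the programme, had 26 counts in all, spread over 8 of 21 libraries (ENSMUSG00000005836, chromosome 18, 11052064 to 11085635, GRCm38). In 2i+LIF HP the 3 libraries gave 0.465, 1.09 and 4.79 CPM, a mean of 2.12 ± 2.34 CPM (SD, n = 3). No other group had counts in more than 1 of its libraries. CH+LIF HP had 7 counts in 1 library (3.34 CPM), and CH+LIF LP had none, which allows up to 0.596 CPM over the group. Against the single count of PO, the 8 counts of 2i+LIF HP were 15.5 times as many per TMM-scaled library size. The 95% interval of 2.08 to 687 covers counting error only, and in edgeR without the filter this contrast was not called (adjusted p 0.240). Of the 8, 5 were in replicate 3, without which the ratio was 7.32 (0.588 to 384). Without PO replicate 2 it was 9.40 and without 2i+LIF HP replicate 1 it was 23.7. Without PO replicate 3 no count was left in PO.

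Gata4, which with Gata6 drives expression of the endodermal matrix genes, had 34 counts in 11 libraries (ENSMUSG00000021944, chromosome 14, 63198922 to 63271692). The PO libraries gave 0.528, 1.31 and 2.74 CPM (mean 1.53 ± 1.12 CPM). The LIF LP libraries gave 0.551, 0.664 and 0.481 CPM. PO and LIF LP were the groups with a Gata4 count in each library, and their values overlapped. In 2i+LIF HP no library had a count, an upper limit of 0.596 CPM over the group. The pooled counts of PO gave 1.75 CPM, at least 2.93-fold higher than in 2i+LIF HP, and at least 1.76-fold higher without PO replicate 3. Such bounds take the counts of the higher group as observed and leave out their counting error. In edgeR without the filter the contrast of 2i+LIF HP with PO was not called for Gata4 (adjusted p 0.191).

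Sox7 and Sox17 are SOX factors of the same programme, and both were sparser still. Sox7 had 12 counts in 6 libraries (ENSMUSG00000063060, chromosome 14, 63943673 to 63950732), of which CH+LIF LP held 8, at 1.94, 1.82 and 0.759 CPM (mean 1.5 ± 0.648 CPM). All 12 fell in LP libraries. Sox7 had no count in PO or in any HP group, and the pooled 1.59 CPM of CH+LIF LP was at least 5.16-fold higher than PO and at least 2.62-fold higher than CH+LIF HP. Sox17 had 3 counts in all (ENSMUSG00000025902, chromosome 1, 4490931 to 4497354), 1 each in replicates 1 and 2 of 2i+LIF HP and in replicate 3 of CH+LIF HP. In a fit without the filter, the joint test over the 6 LP and HP groups gave these 4 factors adjusted p-values (edgeR quasi-likelihood, Benjamini-Hochberg) of 0.845 for Gata4, 0.669 for Gata6, 0.345 for Sox7 and 0.799 for Sox17. None was called in this test, which leaves out PO.

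Pdgfra encodes the PDGF receptor that primitive endoderm displays, and it had 48 counts in 11 libraries (ENSMUSG00000029231, chromosome 5, 75152292 to 75198215). The 2i+LIF HP libraries gave 2.32, 12.5 and 0.958 CPM (mean 5.27 ± 6.33 CPM), with 23 of the group's 29 counts in replicate 2. The LIF HP libraries gave 1.55, 0.616 and 4.12 CPM (mean 2.09 ± 1.82 CPM). These were the groups with a Pdgfra count in every library, and they overlapped. CH+LIF HP and LIF LP had none, limits of 0.606 and 0.555 CPM. The pooled counts of 2i+LIF HP gave 5.77 CPM, at least 9.51-fold higher than in CH+LIF HP, and at least 3.10-fold higher without 2i+LIF HP replicate 2. Those of LIF HP gave 1.76 CPM, at least 3.18-fold higher than in LIF LP, and at least 2.02-fold higher without LIF HP replicate 3. The gene missed the filter of the main fit. Without it the joint test over the LP and HP groups gave an adjusted p of 0.00809, and DESeq2 gave 0.0341. In the main fit that test called 13.1% of all genes. The contrast of CH+LIF HP with 2i+LIF HP gave 0.0659 in edgeR without the filter. In the same fit 2i+LIF HP against 2i+LIF LP gave 0.423, LIF HP against 2i+LIF HP 0.718 and LIF HP against LIF LP 0.126. Pdgfra overlaps the listed gene Gm42802, and the strand setting of the counting is not given in the sources used here.

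Dab2, an endocytic adaptor of extraembryonic endoderm, had 57 counts in 16 libraries (ENSMUSG00000022150, chromosome 15, 6299788 to 6440712, overlapping Gm16311). The 2i+LIF LP libraries gave 4.91, 1.72 and 1.68 CPM (mean 2.77 ± 1.85 CPM). The 2i+LIF HP libraries gave 0.930, 2.18 and 4.79 CPM (mean 2.63 ± 1.97 CPM). Group means in PO and LIF LP were 1.88 and 1.78 CPM, and those of CH+LIF LP, CH+LIF HP and LIF HP were 0.455, 0.159 and 0.549 CPM. CH+LIF HP had 1 count, in replicate 2, which per TMM-scaled library size was 0.0924 times the level of 2i+LIF HP, with a counting interval of 0.00215 to 0.635. Without 2i+LIF HP replicate 3 it was 0.134 times (0.00292 to 1.11). The joint test without the filter gave an adjusted p of 0.435 in edgeR and of 0.211 in DESeq2.

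Lama1, the alpha chain of embryonic laminin, had counts in all 21 libraries, 1381 in total (ENSMUSG00000032796, chromosome 17, 67697259 to 67822647). PO gave 26.4, 35.3 and 67.1 CPM, 2i+LIF LP 68.0, 43.9 and 19.0 CPM, and 2i+LIF HP 32.5, 39.2 and 47.0 CPM. CH+LIF LP gave 17.9, 21.2 and 31.1 CPM, CH+LIF HP 24.0, 25.8 and 33.5 CPM, LIF LP 30.3, 14.6 and 15.4 CPM, and LIF HP 48.4, 19.7 and 20.6 CPM. The 3 groups in 2i+LIF had the highest means, 43.6 ± 24.5 CPM in LP, 42.9 ± 21.4 CPM in PO and 39.6 ± 7.22 CPM in HP, and LIF LP the lowest at 20.1 ± 8.84 CPM, but each group overlapped the next in the order of means. The joint test gave an adjusted p of 0.349. LIF LP differed from 2i+LIF LP by -1.11 on the log2 scale (SE 0.46, adjusted p 0.317) and from PO by -1.10 (SE 0.46, adjusted p 0.115), both in edgeR. In the fit without both libraries that stood apart, Lama1 was called lower in LIF LP than in PO.

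Lamb1, the beta chain that pairs with the alpha chain in the same trimer, had 318 counts in 20 libraries (ENSMUSG00000002900, chromosome 12, 31265234 to 31329644). The LIF LP libraries gave 8.26, 19.9 and 23.1 CPM (mean 17.1 ± 7.81 CPM). The LIF HP libraries gave 3.09, 3.70 and 2.06 CPM (mean 2.95 ± 0.827 CPM). Each LIF LP library lay above each LIF HP library, and so, in the same direction, did 19.3% of the 10643 genes tested. Lamb1 fell by 2.47 on the log2 scale from LIF LP to LIF HP (SE 0.71, edgeR adjusted p 0.0265), in a contrast that called 9.96% of all genes, 4.63% as lower. When each of the 6 libraries compared was left out in turn, the call held without LIF LP replicate 1 and was lost without each other library, with adjusted p-values of 0.0329 to 0.0994.

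In the other groups Lamb1 followed the same direction from LP to HP without a call. The 2i+LIF LP libraries gave 4.91, 7.32 and 12.3 CPM, and the 2i+LIF HP libraries 0.930, 5.45 and 0 CPM, an overlapping pair with a log2 difference of -1.81 (SE 0.73, adjusted p 0.191). CH+LIF LP gave 6.78, 10.9 and 7.59 CPM against 7.14, 3.34 and 3.81 CPM in CH+LIF HP, a log2 difference of -0.82 (SE 0.68, adjusted p 1). PO, at 7.39, 5.23 and 13.5 CPM, lay within the range of the LP groups. The HP groups differed from PO by -1.90 in 2i+LIF (SE 0.72, adjusted p 0.0876), -1.51 in LIF (SE 0.70, adjusted p 0.154) and -0.88 in CH+LIF (SE 0.66, adjusted p 0.458), all in edgeR and none called. Without both libraries that stood apart, Lamb1 was called lower in 2i+LIF HP than in PO. From highest to lowest mean the order was LIF LP, PO, CH+LIF LP, 2i+LIF LP, CH+LIF HP, LIF HP and 2i+LIF HP, and each neighbouring pair overlapped.

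Col4a1 and Col4a2 encode the chains of the most widespread type IV collagen and lie head to head on chromosome 8, sharing a promoter region. Col4a1 (ENSMUSG00000031502, 11198423 to 11312826, reverse strand) and Col4a2 (ENSMUSG00000031503, 11312805 to 11449287, forward strand) overlap by 22 bases at their starts. The RefSeq promoter windows of GRCm38.p6, from 250 bases before to 50 after the start, are printed for this pair and for Lamb1 because Col4a1 and Lamb1 were called between groups and Col4a2 adjoins Col4a1. Each is 5′ to 3′ on the gene's own strand, with capitals marking CCAAT and GGGCGG on either strand (ATTGG and CCGCCC are their reverse complements). The windows are chr8:11312777-11313076 for Col4a1, chr8:11312555-11312854 for Col4a2 and chr12:31265043-31265342 for Lamb1.
Col4a1: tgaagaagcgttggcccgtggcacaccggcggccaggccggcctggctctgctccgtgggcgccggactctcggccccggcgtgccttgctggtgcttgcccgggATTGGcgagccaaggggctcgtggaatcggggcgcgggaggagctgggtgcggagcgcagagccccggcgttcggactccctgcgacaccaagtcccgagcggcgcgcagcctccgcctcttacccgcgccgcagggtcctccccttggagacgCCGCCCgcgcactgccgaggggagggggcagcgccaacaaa
Col4a2: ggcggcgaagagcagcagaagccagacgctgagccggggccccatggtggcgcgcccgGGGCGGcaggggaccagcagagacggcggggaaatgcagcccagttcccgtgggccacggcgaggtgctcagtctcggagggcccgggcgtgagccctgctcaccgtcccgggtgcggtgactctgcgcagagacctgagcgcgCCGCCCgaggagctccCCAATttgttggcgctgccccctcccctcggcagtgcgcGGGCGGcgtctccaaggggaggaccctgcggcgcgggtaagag
Lamb1: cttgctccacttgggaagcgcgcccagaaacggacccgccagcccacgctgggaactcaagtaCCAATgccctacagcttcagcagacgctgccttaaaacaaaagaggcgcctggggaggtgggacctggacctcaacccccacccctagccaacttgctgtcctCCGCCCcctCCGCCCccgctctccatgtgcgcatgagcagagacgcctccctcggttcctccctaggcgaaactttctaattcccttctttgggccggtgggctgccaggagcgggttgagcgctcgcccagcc
The Col4a1 and Col4a2 windows share 78 bases, which hold 1 GGGCGG that is counted in both and no CCAAT. The Col4a1 window held 1 CCAAT and 1 GGGCGG, the Col4a2 window 1 and 3, and the Lamb1 window 1 and 2, and no match of one motif overlapped another. Of 32851 mouse promoter windows of the same 300 bases, 37.4% held CCAAT and 35.7% held GGGCGG. CpG pairs numbered 37, 33 and 18 in the Col4a1, Col4a2 and Lamb1 windows against a median of 7. The AP-1 letters TGANTCA, found in 7.81% of all windows, were in none of the 3 on either strand. Neither were the GATA letters AGATAA, found in 11.2%, or the TATA-box letters TATAAA, found in 13.6%. A window of Dab2 that is not printed, chr15:6299539-6299838, did hold AGATAA. Only these exact letters were searched, so other forms of a GATA site were not counted. Of the 10 genes, 5 were matched in the RefSeq table.

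The LIF LP libraries gave 15.4, 14.6 and 12.0 CPM (mean 14.0 ± 1.77 CPM), above every library of the other 6 groups. Of the 10643 genes tested, 1.01% had LIF LP above all other libraries in this way, and 7.05% had any 1 of the 7 groups so placed. The 2i+LIF LP libraries gave 9.12, 0.861 and 5.59 CPM (mean 5.19 ± 4.14 CPM), and those of CH+LIF LP 4.84, 4.24 and 1.52 CPM (mean 3.53 ± 1.77 CPM). CH+LIF HP gave 1.30, 2.39 and 2.28 CPM, LIF HP 2.58, 3.70 and 0 CPM, and PO 0, 2.61 and 2.74 CPM. The 2i+LIF HP libraries had no count, a limit of 0.596 CPM over the group. The step from LIF LP to 2i+LIF LP, the next highest mean, was the single neighbouring pair without overlap in the order of any of the 10 genes.

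Across the 6 LP and HP groups, the adjusted p in edgeR's joint test, which called 13.1% of all genes, was 0.00776 for Col4a1, whose entry into the test rested on LIF LP, and 0.0301 for Lamb1. In the fit without the filter these were 2.73e-05 and 0.00385. The Col4a1 call held when each of the 18 LP and HP libraries was left out (adjusted p 0.00357 to 0.0291). The Lamb1 call held in 13 of these 18 and was lost without LIF LP replicate 2 or 3, 2i+LIF HP replicate 1, or LIF HP replicate 2 or 3, with an adjusted p of up to 0.122.

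In 2i+LIF, Col4a1 was called lower at HP than at LP (0 counts against 25, or 4.52 CPM when pooled, at least 7.57-fold lower, edgeR adjusted p 0.0244), where 3.67% of all genes were called and 2.05% were lower. The highest of the 2i+LIF LP libraries was replicate 1, which stands apart, and without it the call was lost, with an adjusted p of 0.0665. The call was also lost without 2i+LIF HP replicates 1, 2 and 3 in turn, with adjusted p-values of 0.0675, 0.110 and 0.0766. Without both libraries that stood apart the adjusted p was 0.0309. The lower bound of the fold was 4.89-fold without 2i+LIF LP replicate 1 and 12.0-fold without replicate 2. Against the limit in 2i+LIF HP, CH+LIF HP, with a pooled level of 2.02 CPM, was higher by at least 3.39-fold (adjusted p 0.180), LIF HP, with 2.43 CPM, by at least 4.07-fold (adjusted p 0.0920) and PO, with 2.16 CPM, by at least 3.62-fold (adjusted p 0.0590), all in edgeR and none called. Without both libraries that stood apart, LIF HP and PO were each called higher than 2i+LIF HP, and without the filter PO was (adjusted p 0.0357).

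Col4a1 was also higher in LIF LP than in PO, by 2.81 on the log2 scale (SE 0.85, edgeR adjusted p 0.0318). In that contrast 12% of all genes were called and 5.84% were higher, and 16.4% of genes were higher without overlap. LIF LP is the group that carried Col4a1 over the filter, and without the filter the adjusted p was 0.0158. The call was lost without each of the 6 libraries compared in turn, with adjusted p-values of 0.0652 to 0.0875 and log2 differences of 2.36 to 3.18. From LIF LP to LIF HP the log2 difference was -2.58 (SE 0.89, adjusted p 0.0643), without overlap between the groups, where 19.3% of genes were lower without overlap. That contrast was called in DESeq2, in edgeR without the filter, in a fit of those groups alone and without both libraries that stood apart. It was not called with DESeq2's size factors in edgeR, with the replicate block, or without mitochondrial genes and Gm42418. Within LP, LIF exceeded CH+LIF by 1.93 (SE 0.84, adjusted p 0.955) and 2i+LIF by 1.47 (SE 0.82, adjusted p 0.501), neither called.

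Col4a2, the partner chain, had 81 counts in 18 libraries and missed the filter. Its mean was also highest in LIF LP, where the libraries gave 7.16, 3.32 and 2.40 CPM (mean 4.29 ± 2.52 CPM). LIF HP followed with 4.64, 2.46 and 2.06 CPM (mean 3.05 ± 1.39 CPM), and the LIF groups overlapped. PO gave 2.64, 0.261 and 4.24 CPM and 2i+LIF LP 4.91, 0.861 and 1.12 CPM. CH+LIF LP gave 0, 1.21 and 1.52 CPM, 2i+LIF HP 0.930, 0.545 and 0 CPM, and CH+LIF HP 0.649, 0.477 and 0 CPM. The joint test without the filter gave an adjusted p of 0.259 in edgeR and 0.119 in DESeq2. Because the pair overlaps at the start and the strand setting is not known, reads there may have been shared or lost.

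**Figure D2:**
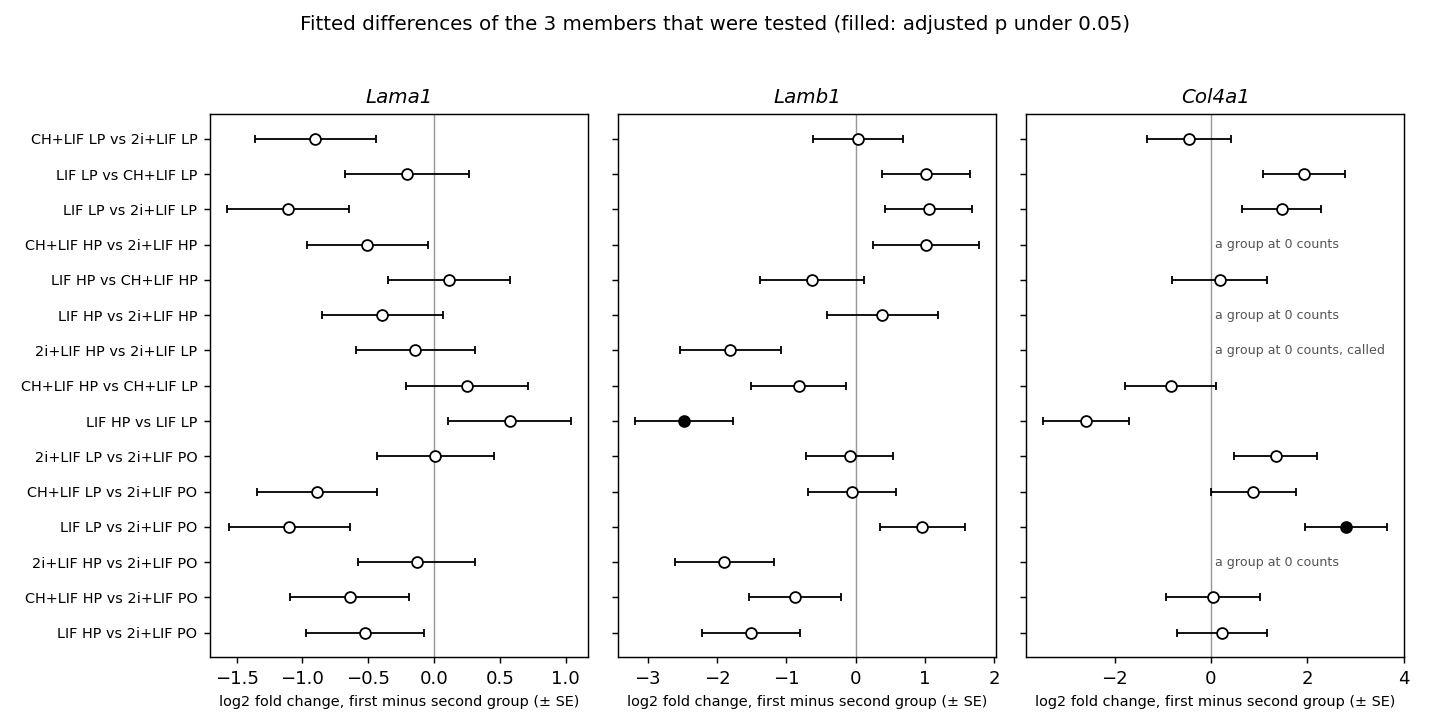
Fitted log2 fold changes with standard errors (horizontal axes, one scale per gene) of Lama1, Lamb1 and Col4a1 in the 15 contrasts between groups, with filled points for adjusted p under 0.05 and a note in place of a point where Col4a1 had no count in a group. The filled points are Lamb1 in LIF HP against LIF LP at -2.47 and Col4a1 in LIF LP against PO at 2.81, and the remaining call, Col4a1 in 2i+LIF HP against LP, is a note.

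No member was called in the 6 contrasts of media in edgeR, 0 of 18 tests, with 4 at an unadjusted p under 0.05 and 0 calls in DESeq2. The share of all genes called there was 0% for CH+LIF LP against 2i+LIF LP, 0.047% for LIF LP against CH+LIF LP, 0.489% for LIF LP against 2i+LIF LP, 2.02% for CH+LIF HP against 2i+LIF HP, 1.47% for LIF HP against CH+LIF HP and 3.78% for LIF HP against 2i+LIF HP. No call was made in CH+LIF HP against CH+LIF LP, where 0.0094% of genes were called. Against PO, no member was called in 2i+LIF LP (5.06% of all genes called), CH+LIF LP (8.31%), 2i+LIF HP (10.6%), CH+LIF HP (5.82%) or LIF HP (12.3%). Whether HP against LP differed between media was tested by 3 interactions, which called none of 9 member tests in edgeR, with 1 at an unadjusted p under 0.05 and 0 calls in DESeq2. Of all genes they called 0.0188% for CH+LIF less 2i+LIF, 0.423% for LIF less CH+LIF and 0.15% for LIF less 2i+LIF. For Lamb1 the fall in LIF less the change in 2i+LIF was -0.66 (SE 1.04, adjusted p 0.852), so the falls were not shown to differ.

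Other chains and linkers of the basement membrane gave 3 called of 9 tested in the joint test (13.1% of all genes). Col18a1, a collagen of basement membranes, had means of 102 ± 26.1 CPM in LIF LP, 47.2 ± 13.2 CPM in CH+LIF LP and 18.5 ± 11.1 CPM in 2i+LIF LP. In HP its means were 9.64 ± 2.80 CPM in LIF, 21.2 ± 2.28 CPM in CH+LIF and 4.03 ± 1.91 CPM in 2i+LIF. Col18a1 was highest in LIF LP, as was Col4a1. It fell by 3.42 from LIF LP to LIF HP (SE 0.46, adjusted p 3.88e-05) and by 2.24 from 2i+LIF LP to HP (SE 0.50, adjusted p 0.0102), and rose by 3.87 in LIF LP against PO (SE 0.45, adjusted p 7.58e-06). It also passed between media, with LIF LP above 2i+LIF LP by 2.44 (SE 0.42, adjusted p 0.00372).

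Lamc1, the gamma chain that completes the trimer with the Lama1 and Lamb1 products, went in 2i+LIF from 109 ± 57.8 CPM at LP to 36.2 ± 8.22 CPM at HP. It fell by 1.58 (SE 0.43, adjusted p 0.0351), so that 2 of 9 in the list were lower there, against 2.05% of all genes. Hspg2 (perlecan, a proteoglycan of the same sheet) had means of 22.3 ± 7.24 CPM in LIF LP and 5.63 ± 4.13 CPM in LIF HP, a fall of 1.92 (SE 0.53, adjusted p 0.0225). With Col18a1 it made 2 of 9 lower there, against 4.63% of all genes. The median log2 difference of the 9 genes was -0.55 in the first contrast and -0.46 in the second, beside 0.01 over all genes in each. Lama5, Nid1, Nid2, Agrn, Fn1 and Lamb2 were not called in either. In LIF LP against PO 3 of 9 were called (12% of all genes), Col18a1 as higher, and as lower Lama5, a laminin alpha chain, at 9.81 ± 7.25 against 72.1 ± 18.9 CPM in PO, and Nid2, a nidogen, at 35.0 ± 17.2 against 116 ± 37.4 CPM.

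**Figure D3:**
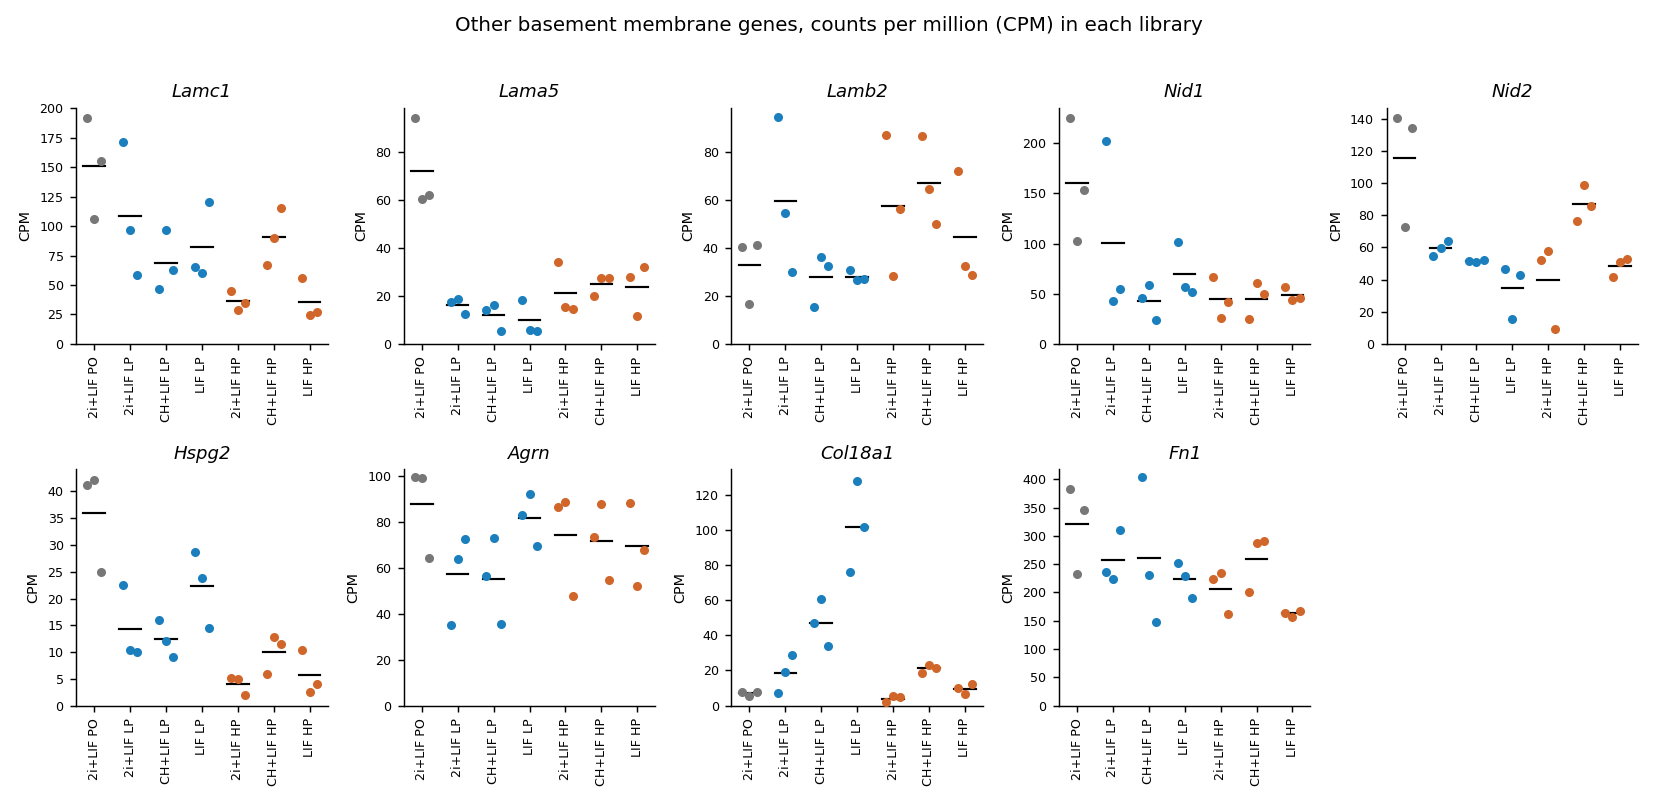
Levels in CPM (vertical axes, one scale per gene) of 9 other basement membrane genes in each library by group, with group means as bars and the colours of the plot of the 10 genes. Col18a1 reaches 76.0 to 128 CPM in LIF LP and at most 12.4 CPM in LIF HP.

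Itga6, an integrin subunit that binds laminin, was the 1 called of 6 matrix receptors in the joint test (adjusted p 0.000436), which called 13.1% of all genes. In 2i+LIF its mean went from 192 ± 18.4 CPM at LP to 58.0 ± 5.42 CPM at HP, a fall of 1.72 (SE 0.31, adjusted p 0.00174) where 2.05% of all genes were lower. From LIF LP to LIF HP it fell by 1.05 (SE 0.31, adjusted p 0.0288) where 4.63% were lower. Itga6 was thus called lower in each contrast of HP with LP in which a member was called. It was higher in LIF LP, at 273 ± 69.0 CPM, than in PO, at 138 ± 32.4 CPM (adjusted p 0.0335, with 5.84% of all genes higher).

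Of the FGF and PDGF genes, Fgf4, the ligand that induces the lineage, was called in the joint test, 1 of 6 tested, beside 13.1% of all genes. Its means in HP were 57.1 ± 25.3 CPM in 2i+LIF and 225 ± 20.9 CPM in LIF, a rise of 1.97 (SE 0.37, adjusted p 0.0024). Fgfr1 had group means of 19.8 to 46.9 CPM with no call, and Fgfr2, the other receptor of that ligand, had at most 0.993 CPM as a group mean. Pdgfa, a ligand of PDGFRA, was at 283 ± 72.0 CPM in PO and was called lower than PO in LIF LP and in each of the HP groups, with means of 106 to 129 CPM.

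Target genes of MEK and ERK were called in the contrasts in which Lamb1 and Col4a1 were called, and also in others in which no member was. In LIF HP against LIF LP 7 of 9 tested targets were lower (4.63% of all genes), and in 2i+LIF HP against its LP group 5 of 9 were lower (2.05%). Dusp6 had a mean of 27.6 ± 17.1 CPM in LIF LP, beside the lower means given above for LIF HP and PO. Etv4 had 106 ± 16.2 CPM in LIF LP and 5.26 ± 1.12 CPM in PO. The early response factors Egr1 and Fos went from 37.7 ± 18.6 and 15.4 ± 3.39 CPM in LIF LP to 0.377 ± 0.330 and 3.16 ± 2.65 CPM in LIF HP. The feedback inhibitors Spry2, Spry4 and Spred1 went from 237 ± 57.9, 8.95 ± 2.09 and 79.6 ± 0.258 CPM to 70.8 ± 14.5, 0 and 12.8 ± 5.25 CPM. The 5 lower in 2i+LIF HP than in its LP group were Dusp6, Spry4, Egr1, Etv4 and Fos. In LIF LP against PO 6 of 9 were higher (5.84%). With no member called, 6 of 9 were higher in CH+LIF LP than in PO, 5 in CH+LIF HP and 4 in 2i+LIF LP, where 8.31%, 5.82% and 5.06% of all genes were called in either direction. Between media at HP, 4 of 9 were lower in LIF than in CH+LIF (1.47% of all genes called), 3 were higher in CH+LIF than in 2i+LIF (2.02%), and 1, Etv4, was lower in LIF than in 2i+LIF (3.78%). Etv4 was also the 1 of 9 called higher in 2i+LIF HP than in PO (10.6%). The interaction of LIF less CH+LIF called 3 of 9 lower (0.423%), Dusp6, Egr1 and Etv4, and the joint test called 6 of 9 (13.1%). The part of this pathway in the matrix genes was not tested.

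Of 7 further transcription factors of primitive endoderm, 1 passed the filter. Nr2f2, also made in mesenchyme and trophoblast, had 42.5 ± 5.66 CPM in 2i+LIF HP, 2.54 ± 0.483 CPM in LIF LP and 14.2 ± 5.74 CPM in 2i+LIF LP (joint adjusted p 0.00106, with 13.1% of all genes called). It was not called in any contrast of media or of HP with LP. It was called lower in LIF LP than in PO, at 14.0 ± 17.2 CPM, where 12% of all genes were called. Of 10 secreted and endocytic proteins of visceral endoderm, 3 were tested. Ttr, a defining one, had no count in any library, and Afp had 3 in all. Cited1, a transcriptional co-regulator of the nucleus that is neither secreted nor endocytic, was the 1 called of these 3 in the joint test (adjusted p 0.000321, with 13.1% of all genes called), at 13.5 ± 3.68 CPM in 2i+LIF HP, 8.95 ± 3.46 CPM in LIF HP and 0.184 ± 0.318 CPM in LIF LP. It was higher in LIF HP than in LIF LP (adjusted p 0.00202). In LIF LP against PO 2 of 3 were lower (12% of all genes called in either direction), Cited1, with 7.99 ± 5.00 CPM in PO, and Amn, the amnionless subunit of the cubilin receptor, at 0.344 ± 0.300 against 6.64 ± 2.68 CPM.

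The 12 naive pluripotency genes were all tested, and 1 was called in the joint test (13.1% of all genes). This was Tbx3, a T-box factor, which was lower in 2i+LIF HP, at 117 ± 25.3 CPM, than in 2i+LIF LP, at 441 ± 97.8 CPM (adjusted p 0.00215), the 1 of 12 called there (2.05% of all genes were lower). In LIF LP against PO, where Col4a1 was higher, 4 of 12 were lower (12% of all genes called in either direction). Nanog went from 449 ± 136 CPM in PO to 199 ± 54.4 CPM, Esrrb from 326 ± 63.5 to 161 ± 5.63 CPM, Zfp42 from 232 ± 105 to 106 ± 12.8 CPM and Tfcp2l1 from 1009 ± 415 to 160 ± 44.1 CPM. None of the 12 was called between LIF LP and LIF HP. In 2i+LIF HP against PO, where no member was called, 5 of 12 were lower (10.6% of all genes called in either direction), these 4 and Tbx3.

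In each contrast in which a member was called, the summed markers of at least 1 other cell type did not overlap between the groups. The same was found in contrasts with no member called, so it does not mark the contrasts with a call. Trophoblast sums, for example, were 5.72 to 9.73 CPM in CH+LIF HP and 9.85 to 20.6 CPM in LIF HP, each below those of 2i+LIF HP. Of the contrasts with a call, the first was 2i+LIF HP, in which Col4a1 had no count, against 2i+LIF LP. The 8 trophoblast markers summed to 41.4 to 69.2 CPM there and to 3.35 to 16.1 CPM in 2i+LIF LP, with 2 of 3 tested called higher (1.63% of all genes were higher). These were Krt7, at 23.5 ± 18.8 CPM against 0.935 ± 1.62 CPM (adjusted p 0.0220), and Cdx2, at 12.6 ± 7.73 CPM against 0.431 ± 0.746 CPM (adjusted p 0.0333), while Elf5, a defining trophoblast gene, had no count in any library. The 8 markers of definitive endoderm and mesendoderm summed to 23.0 to 49.1 CPM against 11.2 to 35.1 CPM, with 1 of 2 called higher, T, at 22.4 ± 12.4 CPM against 1.00 ± 1.74 CPM (adjusted p 0.0235), and Cer1 had no count anywhere. Krt7, Cdx2 and T had their highest group means in 2i+LIF HP and may have passed the filter through that group. Their calls are therefore given as a record and support nothing. The 5 endothelial markers summed to 31.1 to 49.8 CPM against 49.8 to 145.2 CPM, with 1 of 3 called, Tek, which had 40 counts in 2i+LIF LP and none in 2i+LIF HP (2.05% of all genes were lower). The 8 fibroblast markers summed to 3.83 to 21.3 CPM against 5.61 to 19.6 CPM, with none of 2 called and no Col3a1 count in either group. In LIF LP against LIF HP, where Lamb1 was called lower at HP, the endothelial markers summed to 59.1 to 77.9 CPM against 27.8 to 39.2 CPM and the fibroblast markers to 11.3 to 38.01 CPM against 8.62 to 10.8 CPM. The trophoblast markers went the other way, at 2.66 to 5.51 CPM against 9.85 to 20.6 CPM. None of these sums overlapped, and those of definitive endoderm and mesendoderm did, at 3.98 to 11.6 CPM against 10.3 to 25.2 CPM. No tested gene of these 4 lists was called in that contrast, which called 9.96% of all genes. Those tested were 3 endothelial, 2 fibroblast and 3 trophoblast markers, and 2 of definitive endoderm and mesendoderm. In PO, set against LIF LP, the sums were 54.9 to 121.9 CPM for endothelium, 14.4 to 21.9 CPM for fibroblasts, 12.6 to 43.3 CPM for trophoblast and 15.7 to 20.4 CPM for definitive endoderm and mesendoderm. There 1 of 3 tested trophoblast markers was called, Tfap2a, at 1.22 ± 1.12 CPM in LIF LP and 13.7 ± 11.0 CPM in PO. No tested marker of the other lists was called, in a contrast that called 12% of all genes. The part of such cells in the levels of Col4a1, Lamb1, Gata6 and Pdgfra was not tested.

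**Figure D4:**
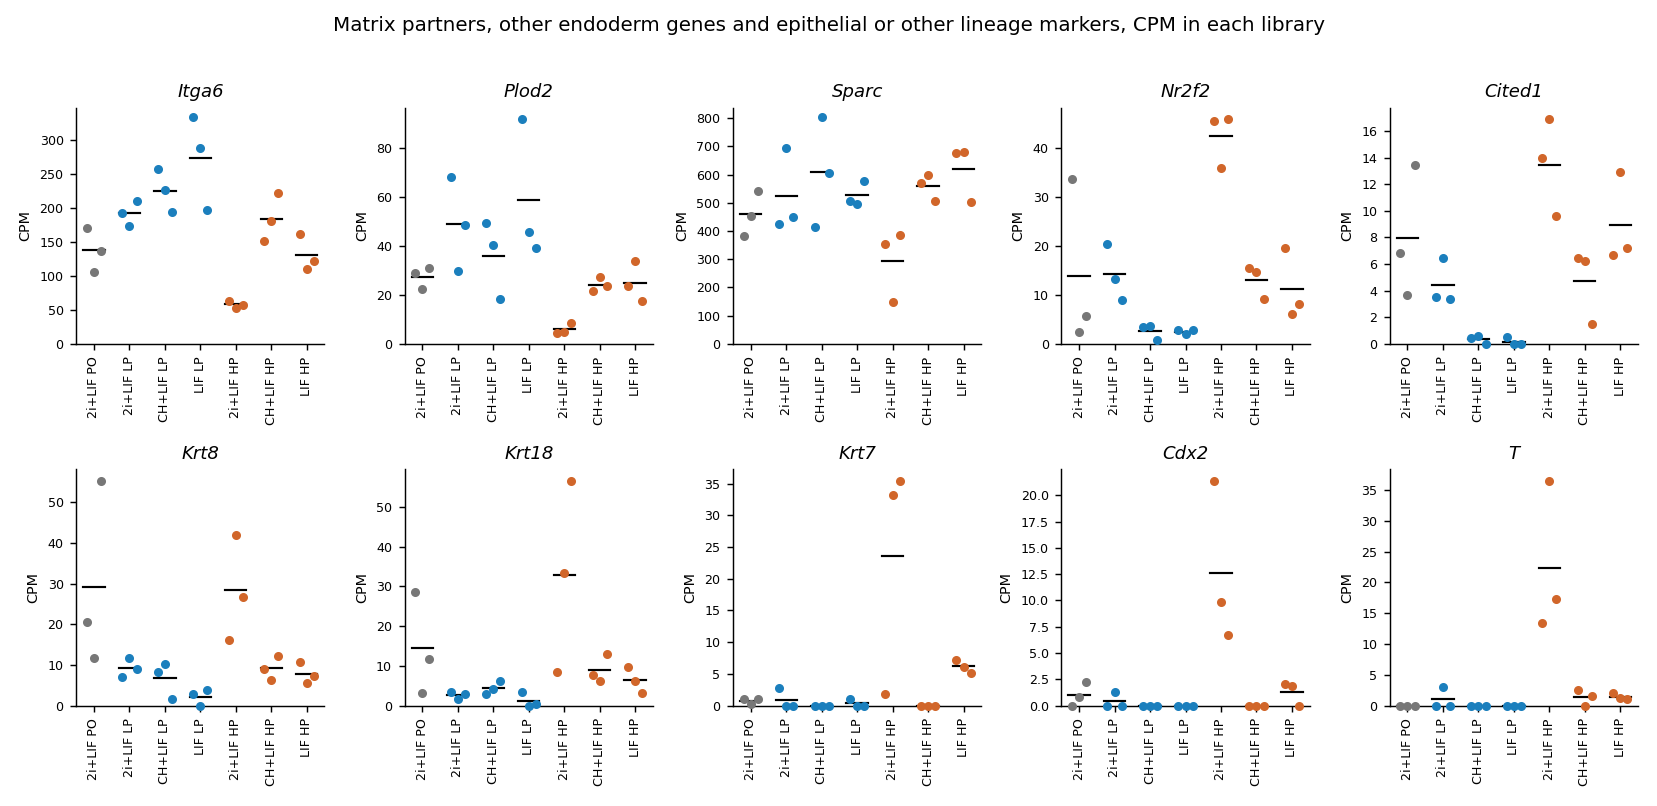
Levels in CPM (vertical axes, one scale per gene) of matrix partners, other endoderm genes and markers of other lineages in each library by group, with group means as bars and the colours of the plot of the 10 genes. Nr2f2, Cdx2, T and Krt7 have their highest group mean in 2i+LIF HP, at 42.5, 12.6, 22.4 and 23.5 CPM, and Itga6 its lowest there, at 58.0 CPM.

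Among the tested members, log2 CPM of Lamb1 and Col4a1 correlated over the 21 libraries (Pearson r = 0.65), and Lama1 gave r = -0.37 with Lamb1 and -0.28 with Col4a1. These are descriptions, because the points share groups, run and depth. Of 7753 genes with a mean of at least 10 CPM, those most like Col4a1 were Btbd11 (r = 0.88), Obsl1 (r = 0.86) and Slc16a3 (r = 0.85). Those most like Lamb1 were Emp1 (r = 0.82), Mkrn1 (r = 0.81) and Smarcad1 (r = 0.81), and those most like Lama1 were Nucb1 (r = 0.81), Zfp687 (r = 0.76) and Sbf1 (r = 0.76), each over the same 21 libraries.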

How the data were processed

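Libraries were made by a sequencing service from 125 ng of total RNA extracted with a column kit, per the labels' protocols. The authors deposited 1 table per library of raw counts (whole numbers) for each Ensembl gene ID. Per the submitters' processing notes, bcl2fastq, STAR 2.6.0a, HTSeq and the build mm10 were used. The annotation, strand setting and filters are not given in the sources used here. The 5 closing entries of each table were left out. Gene counts made up 47.4 to 62.0% of entries per library. GENCODE M21 (GRCm38) gave symbols and positions for 31011 of 31053 IDs. Replicates of a group differed by more than sampling noise, with a chi-square per degree of freedom of at least 4.90.

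Tests used edgeR 4.0.16 in R 4.3.3: 1 quasi-likelihood fit of all 21 libraries with a coefficient per group, 14 residual degrees of freedom, TMM scaling and filterByExpr, which left 10643 genes. The two-sided p-values were adjusted over these genes within each contrast (Benjamini-Hochberg, threshold 0.05). A count of 0 was taken to allow 3 counts over the group, and such bounds and ratios used pooled counts over TMM-scaled library sizes, as the CPM values do, with exact 95% intervals for ratios. Intervals and floors cover counting error only. A bound takes the counts of the higher group as observed, so their counting error is left out of it. Log2 CPM used a prior count of 2.

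Every member was named whether tested or not. Values of other list genes were given where they were called in the joint test or in a contrast that called a member. Fgfr1, Fgfr2, Ttr, Afp, Sparc, Elf5, Cer1 and Col3a1 fall outside that rule and were named after their values were seen. In addition, for each tested member the 3 genes of highest Pearson correlation were named. The members and lists were chosen with earlier results of these data known. Alternatives were DESeq2 1.42.0, its size factors in edgeR, no filter, the replicate number as a block, only the groups compared, the omission of both libraries that stood apart, the removal of mitochondrial genes and Gm42418, and each library left out in turn.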

Additional observations from a re-analysis of the deposited data

How the results depend on the processing

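Of the 3 tested members, 2 were called in the joint test of the LP and HP groups, and leaving out 1 library at a time gave 1 to 2. The contrasts of HP with LP gave 2 calls, and 1 to 3 with a library left out. Contrasts with PO gave 1 call, 0 to 2 with a library left out, 2 without the filter on low counts and 4 without both libraries that stood apart. Contrasts of media gave 0 calls, and 1 without both libraries that stood apart. The interactions gave 0 in every setting run. Without both libraries that stood apart, more genes were called over the whole table: 2687 in place of 1390 in the joint test, 2370 in place of 1060 in LIF HP against LIF LP, 627 in place of 391 in 2i+LIF HP against 2i+LIF LP, and 2279 in place of 1272 in LIF LP against PO. The cause of these changes was not tested. Replicate numbers recur in every group, but the labels do not say what a number marks. Same-numbered libraries deviated together in all 3 pairs in 1 of 15 contrasts, and with the replicate block the numbers of member calls were 2, 0, 2, 1 and 0 for the joint test, media, HP against LP, PO and interactions, the same as without it. A fit of 2i+LIF LP and 2i+LIF HP alone left Col4a1 out through its filter. Of the 10 members, 7 missed the filter of the main fit. Bounds against groups with no count, and ratios of pooled counts, were also computed with each library left out, and the bounds without TMM, alternatives chosen after seeing the data. Without TMM the bounds were 0.729 to 1.10 times those given.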

Other observations

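Genes that help to fold and cross-link collagen and laminin gave 1 called of 9 tested in the joint test of the LP and HP groups, which called 13.1% of all genes. Plod2, a lysyl hydroxylase of collagen, had a mean of 6.06 ± 2.23 CPM (SD, n = 3) in 2i+LIF HP and 48.8 ± 19.2 CPM in 2i+LIF LP, and it fell by 3.05 on the log2 scale (SE 0.48, edgeR adjusted p 0.000481). It was also lower in 2i+LIF HP than in CH+LIF HP, with 24.1 ± 2.92 CPM, and than in LIF HP, with 25.0 ± 8.26 CPM. P4hb, the shared subunit of prolyl 4-hydroxylase, rose by 1.21 from LIF LP to LIF HP (SE 0.34, adjusted p 0.0229), from 125 ± 39.2 to 290 ± 42.9 CPM. P3h1, a prolyl 3-hydroxylase, was lower in LIF LP, at 9.23 ± 4.00 CPM, than in PO, at 33.5 ± 8.31 CPM (adjusted p 0.0204).

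Of 10 parietal endoderm genes, 5 were tested. Vim, an intermediate filament gene also made by many other cells, had 47.9 ± 31.6 CPM in PO and was called higher in each of the 6 LP and HP groups, with group means of 159 to 508 CPM, in contrasts that called 5.06 to 12.3% of all genes. Krt8 and Krt18, keratins of simple epithelia, were the 2 called of the 5 in the joint test (adjusted p 0.0124 and 0.00201), beside 13.1% of all genes. Krt18 rose by 3.60 from 2i+LIF LP to 2i+LIF HP (SE 0.81, adjusted p 0.0118), and Krt8 was lower in LIF LP than in PO by a log2 difference of -3.62 (SE 0.72, adjusted p 0.0017), as was Krt18, at 1.26 ± 1.79 against 14.4 ± 12.9 CPM (adjusted p 0.0131). Sparc, a matrix glycoprotein abundant in parietal endoderm, had group means of 296 to 620 CPM and no call.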
